A study of Mus musculus with 12 samples.

Results

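The 10 genes described here encode heat shock proteins and small chaperones of the cardiac myocyte: the small heat shock proteins Cryab, Hspb1, Hspb6, Hspb7 and Hspb8, the HSP70 proteins Hspa1a, Hspa1b and Hspa8, the J-domain protein Dnajb1 and the BAG-domain protein Bag3. They were chosen by name, with earlier results of these data known, and each symbol matched 1 of the 48526 genes counted in every library. RNA-seq read counts were compared over 12 libraries, 3 in each of 4 groups. The groups were Purkinje cells (PCs) and working ventricular myocytes (VMs) of adult mice that were either wild type at Ncam-1 (WT PC and WT VM) or homozygous for the Ncam-1 −/− allele (KO PC and KO VM). Mice of all 4 groups carried the Cntn2-EGFP BAC transgene, which marks PCs; the Ncam-1 line was kept on a C57BL/6 background and the transgene on CD1, and the 2 were crossed. Dissociated cells from Langendorff-digested hearts were stained with the mitochondrial dye TMRM (50 nM, 15 min) and sorted as dye-positive and GFP-positive (PC) or dye-positive and GFP-negative (VM). The sex of the mice, the number of hearts behind a library and whether PC and VM libraries of 1 number came from the same heart were not given in the sources used here, so the 12 libraries may stand for fewer animals and the p-values below measure the spread between libraries, which may be technical.

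Chaperones hold other proteins in a soluble, foldable state. Small heat shock proteins bind partly unfolded proteins without using ATP, and in myocytes Cryab protects desmin, titin and other filament proteins at the Z-disc. HSP70 proteins use ATP to refold clients, J-domain proteins such as Dnajb1 deliver clients and start the ATP cycle, and Bag3 releases clients and links HSP70 with Hspb8 in chaperone-assisted selective autophagy, which clears damaged filament proteins from working muscle. Hspa8 is the constitutive member of the HSP70 group. Hspa1a, Hspa1b, Dnajb1, Hspb1, Cryab and Bag3 are known targets of the heat shock factor HSF1, and cell isolation by warm enzymatic digestion is a known trigger of that response.

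The libraries held 13883427 to 42505705 read pairs assigned to genes, of which 1532393 to 6761356 lay outside the mitochondrial genome. WT PC replicate 2 stood apart, with 63.9% of its read pairs not aligned (18.8% to 24.7% in the other 11 libraries) and 11847 genes detected, the fewest of all. Ncam1, the targeted gene, had 83, 34 and 116 reads in the WT PC libraries and 0, 1 and 1 in the KO PC libraries, and 6, 0 and 9 reads in WT VM against 0 in each KO VM library. The 10 cardiomyocyte markers summed to 384708 to 696253 normalized counts over the 12 libraries, and a list of 10 PC markers summed to 1124 to 3450 normalized counts in WT PC, 369 to 1733 in KO PC and 108 to 184 in VM libraries. Cntn2, whose regulatory sequences drive the reporter, had 237, 451 and 533 normalized counts in WT PC, at most 49.2 in KO PC replicates 1 and 2 and 452 in replicate 3, and 2.22 to 8.99 in VM libraries. Normalized counts are read counts scaled to a common effective library size. In pools of sorted cells, fewer cells of a type and less RNA per cell cannot be told apart.

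Of the 10 genes, 8 had an entry among the RefSeq promoter windows (GRCm38.p6, 250 bases before to 50 after a transcript start); Cryab and Hspa8 had none. HSF1 binds inverted repeats of a short unit, so each window was searched for GAANNTTC and for TTCNNGAA; both motifs read the same on either strand and can overlap each other. GAANNTTC was found in 7.86% of all 32851 windows and TTCNNGAA in 8.52%. GAANNTTC was found for 6 of the 8 genes and TTCNNGAA for none. The bases before the start are shown for the neighbouring twins Hspa1a and Hspa1b, for Hspb1, which held 2 matches, and for Hspb8. In KO VM against WT VM, Hspb8 had an edgeR unadjusted p under 0.05 but did not pass the adjusted threshold. Capitals mark GAANNTTC.
Hspa1a (chr17:34972157-34972406, minus strand): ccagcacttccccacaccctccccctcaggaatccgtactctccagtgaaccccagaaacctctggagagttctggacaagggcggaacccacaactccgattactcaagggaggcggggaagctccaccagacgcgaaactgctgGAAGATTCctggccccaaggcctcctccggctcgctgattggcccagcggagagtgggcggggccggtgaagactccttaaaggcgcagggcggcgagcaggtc
Hspa1b (chr17:34959239-34959488, minus strand): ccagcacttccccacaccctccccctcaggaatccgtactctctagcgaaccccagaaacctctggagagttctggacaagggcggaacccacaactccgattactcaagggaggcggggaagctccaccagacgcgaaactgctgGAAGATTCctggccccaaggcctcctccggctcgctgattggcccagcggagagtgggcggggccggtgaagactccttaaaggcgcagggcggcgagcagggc
Hspb1 (chr5:135887669-135887918, plus strand): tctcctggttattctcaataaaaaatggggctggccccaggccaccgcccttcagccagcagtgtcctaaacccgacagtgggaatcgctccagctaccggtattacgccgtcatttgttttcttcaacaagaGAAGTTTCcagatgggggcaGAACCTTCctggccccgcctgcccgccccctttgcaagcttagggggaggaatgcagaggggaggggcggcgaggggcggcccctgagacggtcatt
Hspb8 (chr5:116422865-116423114, minus strand): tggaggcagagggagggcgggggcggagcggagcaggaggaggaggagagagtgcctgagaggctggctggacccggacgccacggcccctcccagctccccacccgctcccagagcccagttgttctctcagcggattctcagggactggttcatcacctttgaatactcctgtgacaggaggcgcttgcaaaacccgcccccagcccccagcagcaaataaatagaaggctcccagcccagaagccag
The Hspa1a and Hspa1b stretches differed at 3 of 250 bases and held the same match, with its first base 104 bases before the start. In Hspb1 the matches began 117 and 97 bases before the start. Hspb8 had no match in the stretch shown and 1 that began at base 3 of the transcript, Bag3 had 1 at base 43 of the transcript, and the second of 2 Hspb6 windows along the gene had 1 that began 120 bases before its start. The single Hspb7 window and both Dnajb1 windows held neither motif, which says only that these letters are not in those windows.

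The 10 genes spanned a wide range of levels. Per kilobase of exon, Cryab and Hspb7 were highest: Cryab led in 6 libraries and Hspb7 in the other 6. In WT VM the mean normalized count per kilobase was 3155 ± 1083 for Cryab, 2603 ± 222 for Hspb7, 1527 ± 148 for Hspb6, 747 ± 69.6 for Hspb8, 456 ± 119 for Hspa8, 253 ± 73.3 for Bag3 and 122 ± 31 for Hspb1 (SD, n = 3). The classical heat-inducible genes were lowest, with 36.6 ± 20.6 for Dnajb1, 16.2 ± 8.38 for Hspa1b and 6.19 ± 4.55 for Hspa1a in the same libraries. The order from Hspb6 down to Hspa1a was the same in all 4 groups. The top pair changed places: by mean level per kilobase, Cryab stood above Hspb7 in both WT groups and below it in both KO groups, and their library ranges overlapped in WT VM and KO PC but not in WT PC or KO VM. Hspb8 and Hspa8 overlapped in 3 of the 4 groups, and Hspa1b and Hspa1a in 3 of the 4. Of the 9 pairs of neighbours in the order, 7 overlapped in WT PC, 4 in WT VM, 3 in KO PC and 2 in KO VM. The raw counts behind these levels ran from 1680 to 17313 read pairs for Cryab but only from 6 to 116 reads for Hspa1a and from 13 to 159 for Hspa1b, so the last pair carried large counting error. Read pairs that aligned to more than 1 place were counted for no gene. Of the 50-base windows, 66.3% for Hspa1a, 62.3% for Hspa1b, 50.1% for Hspb1 and 39.4% for Hspa8 occur in another gene. For Dnajb1 it was 0.412%. The levels of those 4 genes may therefore be too low, and their places in the order are uncertain.

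**Figure D1:**
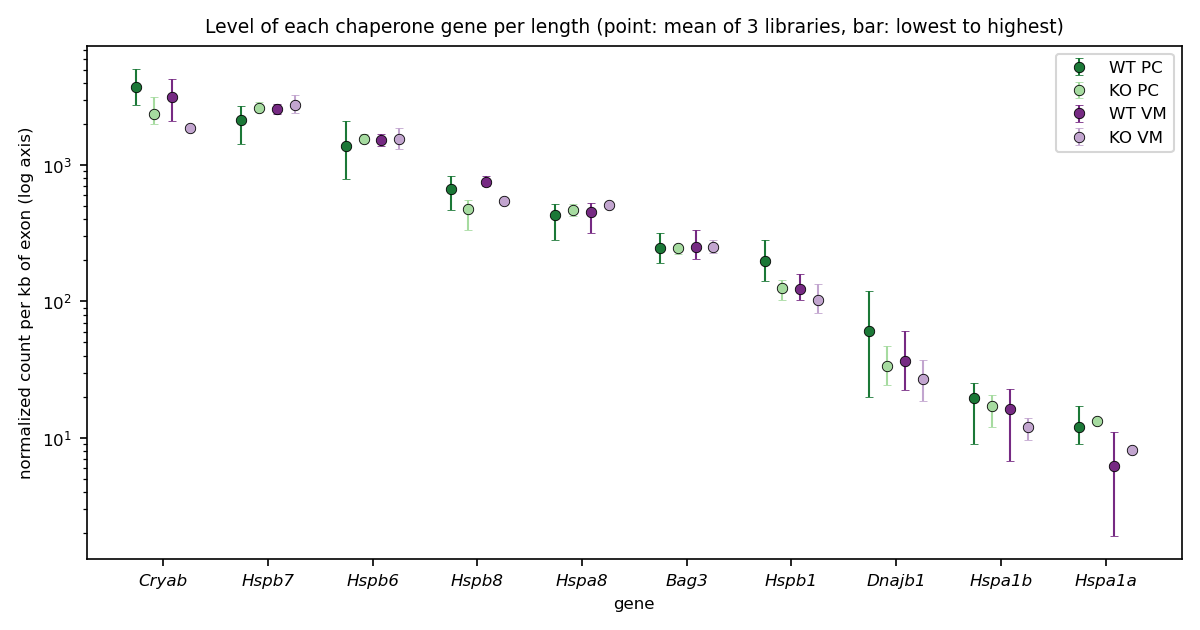
Normalized count per kilobase of exon (log axis) for each gene, ordered by mean level; points are means of 3 libraries in each group and bars run from the lowest to the highest library. Cryab, Hspb7 and Hspb6 sit at the top, Hspa1b and Hspa1a at the bottom, and the KO means of Cryab lie below both WT means.

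None of the 10 genes passed an adjusted p of 0.05 in any comparison by the quasi-likelihood test of edgeR, with the Benjamini-Hochberg method applied to every gene tested, nor with DESeq2 or limma. All 10 passed the filter of a mean normalized count above 5 in each comparison. The first question was which of them differed between knockout and wild type. In PCs, the share of all genes past an adjusted p of 0.05 was 0%, past an unadjusted p of 0.05 it was 3.22%, and 9.31% of genes had normalized counts that did not overlap between KO PC and WT PC; none of the 10 was in any of these shares. In VMs the same shares were 0.0373%, 5.12% and 9.65%. There, 2 of the 10, Cryab and Hspb8, had an unadjusted p under 0.05 and did not overlap between KO VM and WT VM, and both were lower in KO VM. The median log2 fold change of the 10 was −0.12 in PCs (5 of 10 below 0) and −0.14 in VMs (6 of 10 below 0), beside −0.00 and −0.02 over all genes tested. The comparisons in PCs and in VMs share no libraries, but each group also serves in a comparison of cell types and in the fits over both.

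Cryab, the αB-crystallin gene, had the smallest genotype p of the 10 genes in VMs and in PCs. Its normalized counts were 6317, 4563 and 3117 in the WT VM libraries and 2834, 2817 and 2740 in the KO VM libraries. Every KO VM library was below every WT VM library, by a small margin for WT VM replicate 3, and the KO VM libraries lay much closer together than the WT VM ones (50.0 against 1602, SD, n = 3). The level in KO VM was 1.67-fold lower (log2 fold change −0.74, SE 0.18, edgeR adjusted p = 0.479), which ranked 19 of 10737 genes by p. With no filter on low counts the edgeR adjusted p was 0.000277, and with DESeq2 it was 0.167. In PCs the counts were 7547, 4079 and 4975 in WT and 2953, 2985 and 4654 in KO. Here 2 KO PC libraries were below every WT PC library and KO PC replicate 3 fell between the WT values. The PC marker sums of the same libraries were 1124, 2423 and 3450 in WT PC and 492, 369 and 1733 in KO PC. Their part in the Cryab values was not tested. The log2 fold change of Cryab in PCs was −0.65 (SE 0.30, edgeR adjusted p = 0.993).

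Leaving out libraries one at a time kept Cryab lower in KO each time, over a range of log2 fold changes from −0.95 to −0.47 in VMs and from −0.93 to −0.38 in PCs. WT VM replicates 1 and 3 moved the value most in VMs: without WT VM replicate 1 it was −0.47 (edgeR adjusted p = 0.781) and without WT VM replicate 3 it was −0.95 (adjusted p = 0.0272). In PCs it was −0.83 without WT PC replicate 2, the library with few aligned reads (edgeR adjusted p = 0.928), and −0.38 without WT PC replicate 1 (adjusted p = 0.769). Over both cell types in 1 fit with cell type as a term, Cryab was 1.62-fold lower in KO (log2 fold change −0.69, SE 0.18, edgeR adjusted p = 0.666). In that fit 0.0353% of all genes passed an adjusted and 5.03% an unadjusted p of 0.05, against 0 and 3 of the 10 genes. The genotype effect on Cryab in PCs differed from that in VMs by 0.09 on the log2 scale (SE 0.38, edgeR adjusted p = 0.999).

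Cryab lies on chromosome 9 (mm10, 50751325 to 50756636, plus strand), 0.952 Mb from Ncam1, on the chromosome that carries the targeted allele. Sequence from the strain in which the allele was made can remain around such a locus after backcrossing, so an effect of the lost gene and an effect of flanking sequence cannot be told apart for Cryab or Hspa8. Among the tested genes within 10 Mb of Ncam1, itself left out, 12 of 138 (8.70%) had an unadjusted p under 0.05 in VMs, 7 of them lower in KO. The share over all genes tested was 5.12%. An adjusted p under 0.05 was found for 3 of the 138, and for 4 (0.0373%) of all 10737 genes tested. Cryab was the fifth of the 138 by p. In PCs the count was 7 of 147 (4.76%, beside 3.22% of all genes tested), with Cryab outside it. Over both cell types it was 14 of 146 (9.59%, beside 5.03%), and Cryab ranked 6 by p. There 3 of the 146 passed the adjusted threshold, as did Ncam1, of 4 among all genes tested. Hspa8 (chromosome 9, 40800984 to 40810087, plus strand) lies 8.69 Mb from Ncam1 on the other side, and it was 50th of 138 in VMs.

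Transcripts of Cryab overlap those of Hspb2, a divergently placed small heat shock protein gene on the minus strand, over 252 exonic bases, 17% of the exonic length of Cryab and 30.2% of that of Hspb2. Whether counting used strand was not stated, so reads from the shared stretch cannot be assigned with certainty. The normalized counts of Hspb2 were 84.4, 113 and 107 in WT VM and 106, 112 and 134 in KO VM, with a log2 fold change of 0.20 (SE 0.20, edgeR adjusted p = 0.973). In WT PC replicate 2, Hspb2 reached 343 normalized counts, against 102 to 174 in the other 5 PC libraries.

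**Figure D2:**
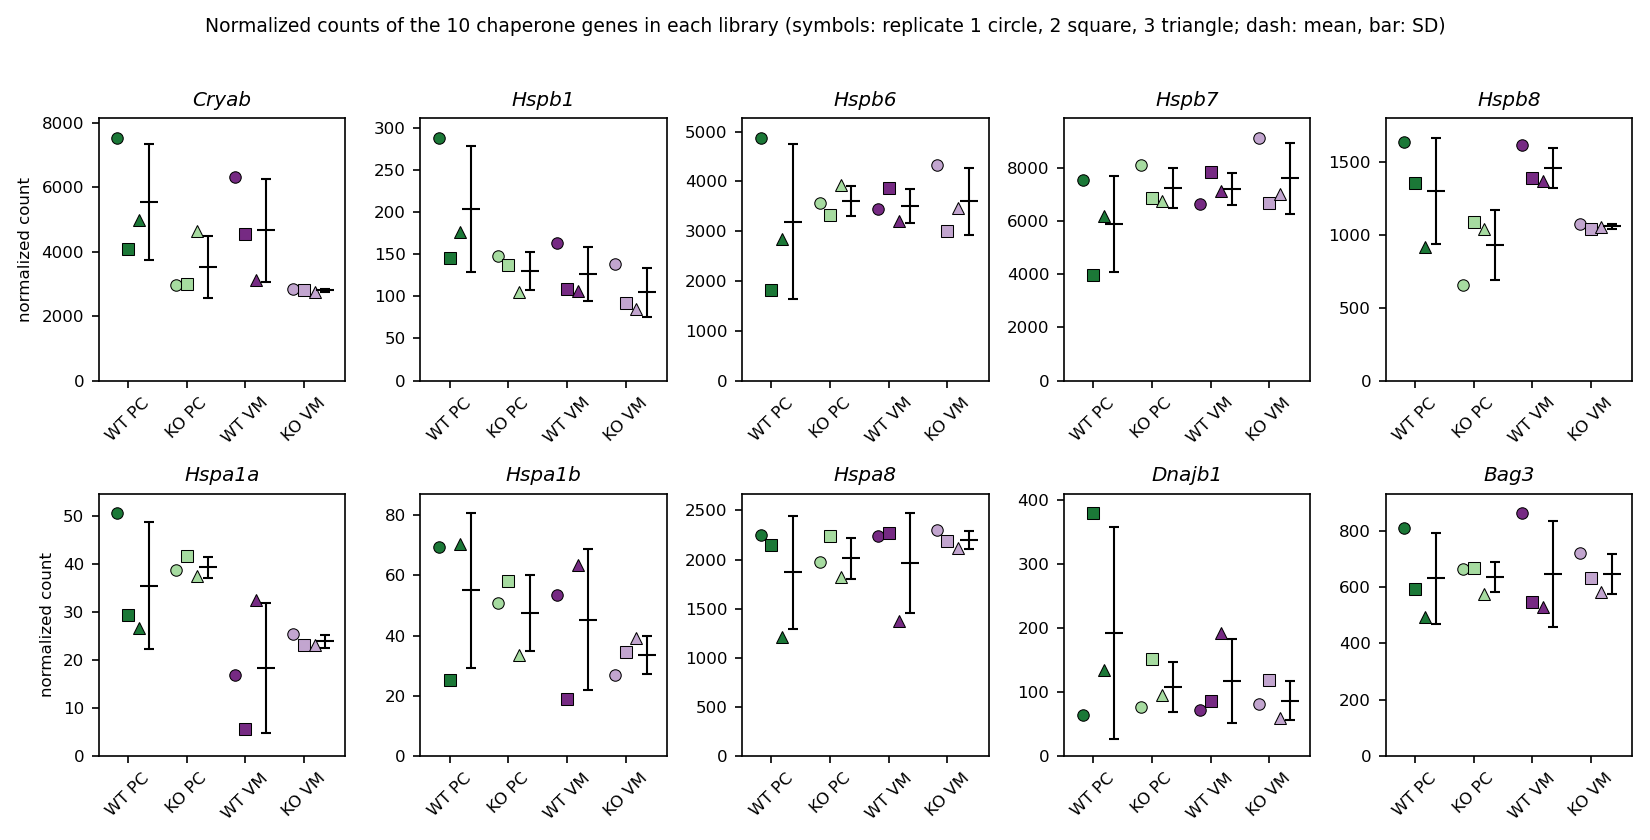
Normalized counts of each gene in every library, by group; circles, squares and triangles are replicates 1, 2 and 3, the dash is the group mean and the bar its SD (n = 3). In the Cryab and Hspb8 panels every KO VM library sits below every WT VM library, while the Hspb6, Hspb7, Hspa8 and Bag3 panels show overlapping groups.

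Hspb8, the partner of Bag3, had normalized counts of 1614, 1386 and 1372 in WT VM and 1075, 1041 and 1056 in KO VM. All 3 KO VM libraries were below all 3 WT VM libraries, with a gap wider than the spread within either group. The level in KO VM was 1.38-fold lower (log2 fold change −0.47, SE 0.13, edgeR adjusted p = 0.664), which ranked 31 of 10737 genes. In WT PC it was 1639, 1354 and 915, and in KO PC 652, 1091 and 1042. These groups overlapped through WT PC replicate 3, and the log2 fold change was −0.48 (SE 0.29, edgeR adjusted p = 0.993). It was −0.27 without KO PC replicate 1, −0.30 without WT PC replicate 1 and −0.68 without WT PC replicate 3, the last with an unadjusted p under 0.05. In VMs it stayed between −0.50 and −0.40 with any 1 library left out. Over both cell types Hspb8 was 1.39-fold lower in KO (−0.47, SE 0.15, edgeR adjusted p = 0.922). Hspb8 lies on chromosome 5, and none of its 50-base windows occurs in another annotated gene.

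Hspb1, the mouse HSP25 gene and a stress-phosphorylated binder of actin filaments, had normalized counts of 289, 146 and 177 in WT PC and 148, 138 and 105 in KO PC. KO PC replicate 1 lay just above WT PC replicate 2, so the groups overlapped. The log2 fold change was −0.67 (SE 0.33, edgeR adjusted p = 0.993), −0.87 without WT PC replicate 2 (adjusted p = 1) and −0.35 without WT PC replicate 1 (adjusted p = 0.81). In VMs it was 163, 109 and 106 in WT and 139, 92.5 and 84.5 in KO, with overlap and a log2 fold change of −0.27 (SE 0.23, edgeR adjusted p = 0.973). It was −0.06 without WT VM replicate 1 and −0.52 without KO VM replicate 1, the latter with an unadjusted p under 0.05 (adjusted p = 0.998). Over both cell types Hspb1 was 1.39-fold lower in KO (−0.47, SE 0.21, edgeR adjusted p = 0.922), and it kept an unadjusted p under 0.05 in 5 of the 12 fits with 1 library left out. Of its 50-base windows, 50.1% occur in another annotated gene, nearly all of them in the pseudogene Hsp25-ps1, and read pairs that aligned to more than 1 place were tallied apart from any gene.

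Hspb6 (HSP20) and Hspb7 (the cardiovascular small heat shock protein), which are abundant in the heart, passed neither threshold for genotype. Hspb7 ran from 6629 to 7852 normalized counts in WT VM and from 6676 to 9149 in KO VM, and Hspb6 from 3204 to 3877 and from 3006 to 4333. Both groups overlapped for both genes. In VMs the log2 fold change was 0.07 (SE 0.14) for Hspb7 and 0.03 (SE 0.15) for Hspb6. In PCs Hspb7 gave 0.29 (SE 0.26) and Hspb6 0.17 (SE 0.33). WT PC was the group with the widest spread for both, with 7535, 3969 and 6195 for Hspb7 and 4883, 1822 and 2853 for Hspb6, the lowest value each time in WT PC replicate 2. Without that library the log2 fold changes in PCs were 0.06 for Hspb7 and −0.11 for Hspb6, and without WT PC replicate 1 they were 0.49 and 0.60, the last with an unadjusted p under 0.05 (edgeR adjusted p = 0.642). The 5 small heat shock protein genes did not share a sign: in both cell types the estimates for Cryab, Hspb1 and Hspb8 were below 0 and those for Hspb6 and Hspb7 above 0 with all libraries in the fit. In VMs both of the last turned below 0 without KO VM replicate 1 (−0.13 and −0.08), as did Hspb6 without WT VM replicate 3 (−0.02).

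**Figure D3:**
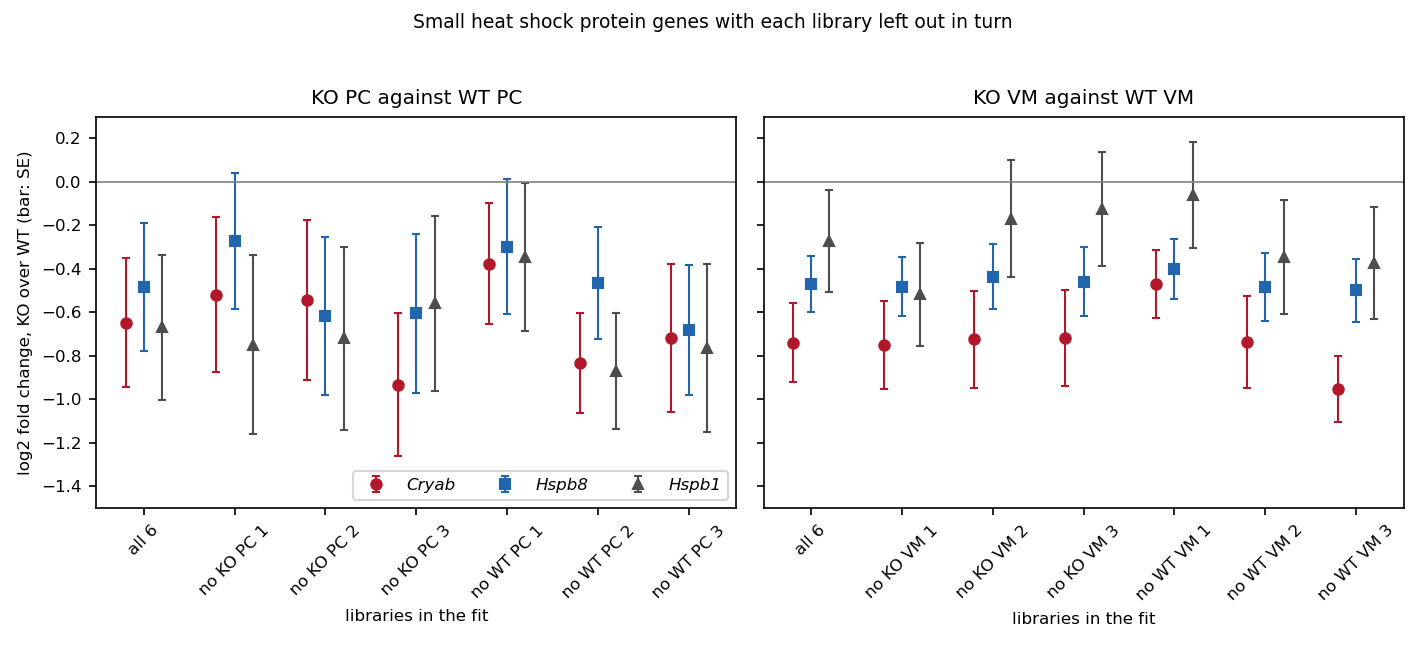
Log2 fold change of KO over WT (bar: SE) for Cryab, Hspb8 and Hspb1 with all 6 libraries and with each library left out, in PCs (left) and VMs (right). The Cryab and Hspb8 estimates stay below 0 in every fit, and the SEs are wider in PCs.

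Hspa1a and Hspa1b are intronless neighbours on chromosome 17 with nearly the same coding sequence. Of the 50-base windows, 66.3% of Hspa1a and 62.3% of Hspa1b occur in another gene, mostly in the twin. Read pairs that aligned to more than 1 place were tallied apart from any gene. The counts of both genes may therefore be low, and summing the pair does not restore such reads. Hspa1a had normalized counts of 16.9, 5.65 and 32.5 in WT VM, 25.5, 23.1 and 23.2 in KO VM, 50.6, 29.3 and 26.6 in WT PC, and 37.4 to 41.7 in KO PC. Hspa1b had 53.5, 18.8 and 63.6 in WT VM, 26.9, 34.7 and 39.4 in KO VM, 69.3, 25.4 and 70.5 in WT PC, and 51.0, 58.1 and 33.4 in KO PC. The KO values lay inside the range of the WT values for both genes in VMs. Summed, the pair gave 63.6 ± 36.3 in WT VM, 57.5 ± 5.10 in KO VM, 90.5 ± 33.1 in WT PC and 86.7 ± 14.7 in KO PC (SD, n = 3). A two-sided exact permutation test of the sums gave p = 1 for the genotype difference in each cell type, where 0.1 is the smallest p that 3 against 3 libraries allow.

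Dnajb1, an HSP70 co-chaperone, was uneven within groups. Its normalized counts were 63.6, 380 and 135 in WT PC, 77.3, 152 and 95.6 in KO PC, 72.2, 86.6 and 193 in WT VM, and 82.0, 119 and 59.0 in KO VM. WT PC replicate 2 and WT VM replicate 3 were high, and the other 10 libraries overlapped. The log2 fold change was −0.79 (SE 0.57, edgeR adjusted p = 0.993) in PCs and −0.46 (SE 0.33, adjusted p = 0.962) in VMs. Each depended on 1 library: without WT PC replicate 2 it was 0.13 in PCs, and without WT VM replicate 3 it was 0.13 in VMs. Without the first WT replicate it was −1.25 in PCs and −0.72 in VMs, both with an unadjusted p under 0.05 (edgeR adjusted p = 0.634 and 0.961). WT VM replicate 3 also had the highest Hspa1a and Hspa1b of the VM libraries, whereas WT PC replicate 2 had the lowest Hspa1b of the PC libraries.

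Hspa8 and Bag3 gave small genotype differences. Hspa8 ran from 1373 to 2272 normalized counts in WT VM, from 2115 to 2298 in KO VM, from 1211 to 2249 in WT PC and from 1821 to 2237 in KO PC. Its log2 fold change was 0.16 (SE 0.16) in VMs and 0.11 (SE 0.26) in PCs. Bag3 ran from 529 to 864 in WT VM, from 583 to 723 in KO VM, from 493 to 809 in WT PC and from 576 to 669 in KO PC. Its log2 fold change was −0.00 (SE 0.18) in VMs and 0.01 (SE 0.25) in PCs. For both genes the KO libraries fell within the WT range or close to its edge, and the SEs allow differences of either sign. Of the 50-base windows of Hspa8, 39.4% occur in other genes, mostly in the pseudogene Gm15459, whereas Bag3 shares none.

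**Figure D4:**
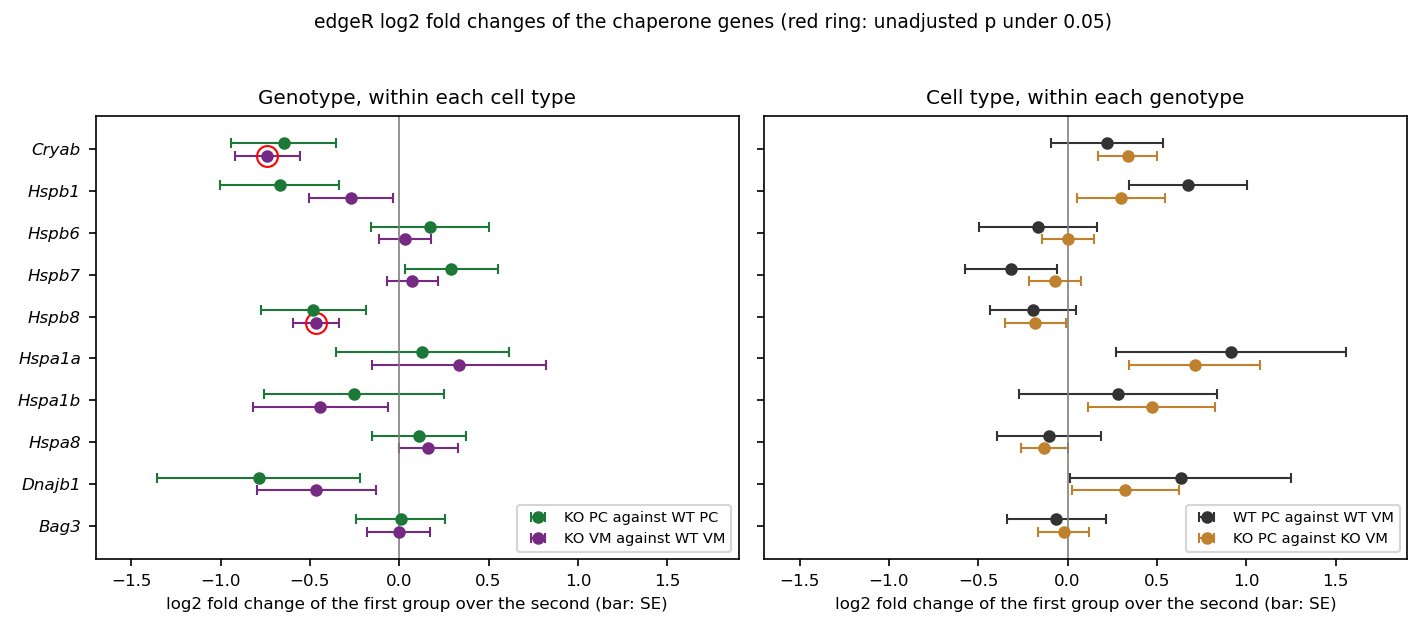
Log2 fold changes with SE from edgeR for the 10 genes, for genotype within each cell type (left) and cell type within each genotype (right); red rings mark an unadjusted p under 0.05. Rings stand only on Cryab and Hspb8 in KO VM against WT VM, and the estimates for Hspa8 and Bag3 lie near 0 in all 4 comparisons.

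The second question was whether PCs and VMs differed. Within WT, 0.11% of all genes passed an adjusted p of 0.05, 6.36% an unadjusted p of 0.05 and 14% did not overlap; within KO the shares were 0.872%, 9.7% and 15.6%. None of the 10 genes passed either threshold in either genotype. In WT none had groups that did not overlap, and in KO there were 2, Cryab and Hspa1a, both higher in KO PC. For Cryab the log2 fold change of KO PC over KO VM was 0.34 (SE 0.16, edgeR adjusted p = 0.537) and in WT it was 0.22 (SE 0.31, adjusted p = 0.903). With 1 library left out the KO value ran from 0.09, without KO PC replicate 3, to 0.45, without KO PC replicate 1. The WT value ran from −0.06, without WT PC replicate 1, to 0.51, without WT VM replicate 1. For Hspa1a it was 0.71 (SE 0.37, edgeR adjusted p = 0.585) in KO and 0.91 (SE 0.65, adjusted p = 0.833) in WT. The sums of Hspa1a and Hspa1b were 70.8 to 99.7 in KO PC against 52.3 to 62.5 in KO VM, with an exact two-sided permutation p of 0.1, the smallest possible. Fitted as 1 gene they gave 0.58 (SE 0.26, edgeR adjusted p = 0.493), past the unadjusted threshold.

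Over both genotypes in 1 fit with genotype as a term, 1.28% of all genes passed an adjusted and 11.7% an unadjusted p of 0.05. Of the 10, 0 passed the adjusted and 2 the unadjusted threshold, both higher in PCs, and the median of the 10 was 0.13 beside 0.02 over all genes. Hspb1 was 1.42-fold higher in PCs (log2 fold change 0.51, SE 0.21, edgeR adjusted p = 0.338) and Hspa1a 1.78-fold higher (0.83, SE 0.35, edgeR adjusted p = 0.343). With Hspa1a and Hspa1b counted as 1 gene the value was 0.55 (edgeR adjusted p = 0.471), past neither threshold. With 1 library left out, the unadjusted call held in 6 of 12 fits for Hspb1 and in 9 of 12 for Hspa1a. When the genotype effect in VMs was subtracted from that in PCs, 0 of the 10 had an unadjusted p under 0.05, where 2.9% of all genes had one and 0% passed the adjusted threshold; the SEs of these differences ran from 0.30 to 0.76 on the log2 scale.

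Cells other than myocytes were unevenly spread over the groups. The 10 markers of endothelial cells summed to 794 to 2658 normalized counts in PC libraries and 106 to 775 in VM libraries, fibroblast markers to 814 to 2325 and 94.8 to 535, and leukocyte and macrophage markers to 288 to 804 and 15.6 to 156. Every PC library was thus above every VM library on each of these 3 lists, beside the higher Hspb1 and Hspa1a in PCs; their part in those differences was not tested. The sums of smooth muscle and pericyte markers overlapped, at 4010 to 6704 in PC and 4289 to 4952 in VM libraries. Still, 7 of the 8 tested over both genotypes were above 0 in PCs (median log2 fold change 1.43). Of the 8, 4 had an unadjusted p under 0.05, beside 11.7% of all genes tested. An adjusted p under 0.05 was found for 1, beside 1.28% of all genes tested. Red cell markers summed to 9.25 to 3166 in WT PC and 8.14 to 141 in WT VM, against at most 14.7 in any KO library, where Hba-a1 and Hba-a2 were at 0. In VMs, 9 of 9 endothelial markers tested had a log2 fold change of KO over WT below 0 (median −0.75). Beside 5.12% of all genes tested, 2 of these markers had an unadjusted p under 0.05. So did 2 of 7 smooth muscle and pericyte markers (5 below 0, median −0.77) and 1 of 8 fibroblast markers (7 below 0, median −0.46), while 3 of 4 leukocyte and macrophage markers were below 0 (median −0.76) and none had one. These stand beside the lower Cryab and Hspb8 in KO VM; their part was not tested. In PCs, 9 of 10 PC markers were below 0 in KO (median −1.20) and 4 had an unadjusted p under 0.05, beside 3.22% of all genes tested. These PC markers stand beside the PC genotype values above, and their part was not tested. Early response genes that cell dissociation is known to induce summed to 2327 to 4610 in PC libraries and 1852 to 4191 in VM libraries. Of 19 of them tested over both genotypes, 7 had an unadjusted p under 0.05, all higher in PCs, beside 11.7% of all genes tested. Cebpd alone among them passed the adjusted threshold (log2 fold change 2.27, SE 0.48, edgeR adjusted p = 0.0249), beside 1.28% of all genes tested.

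The wider chaperone network was read from 8 lists of genes. Against WT, no gene of these lists passed an adjusted p of 0.05 in KO PC or KO VM. The 25 genes of HSF1 and cytosolic chaperones had a median log2 fold change of −0.17 in PCs (18 of 25 below 0) and 0.07 in VMs (11 of 24 below 0), beside medians of −0.00 and −0.02 over all genes tested. Hsp90ab1, the constitutive HSP90 and the most abundant of them, gave −0.20 (SE 0.23) in PCs and −0.03 (SE 0.15) in VMs. In PCs Hspa1l, the third HSP70 gene of the Hspa1a cluster, had the smallest p of that list (log2 fold change −3.92, SE 1.59, edgeR adjusted p = 0.993), but it had 18 reads in WT PC replicate 2 and at most 9 in any other library.

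The 13 J-domain co-chaperones had medians of −0.01 in PCs and −0.10 in VMs, the 8 nucleotide exchange factors and BAG proteins 0.07 and 0.08, and the 8 TRiC chaperonin subunits −0.07 and −0.01. The 8 mitochondrial chaperones gave 0.04 and −0.03, and the 14 ER chaperones −0.04 and 0.05. Within them, Hyou1, an ER chaperone, was 1.01 higher on the log2 scale in KO VM (SE 0.28, edgeR adjusted p = 0.664), and Cct4, a TRiC subunit, 0.58 lower (log2 fold change −0.58, SE 0.17, edgeR adjusted p = 0.711). Cct4 was also the most abundant of its list. The most abundant genes of the other 4 lists gave in VMs −0.01 (SE 0.14) for Dnaja2, 0.08 (SE 0.14) for Bag1, −0.02 (SE 0.13) for Hspa9 and 0.19 (SE 0.12) for Hspa5. In PCs these 4 gave 0.11 (SE 0.21), 0.23 (SE 0.25), 0.10 (SE 0.21) and −0.05 (SE 0.23), and Cct4 gave −0.15 (SE 0.25). Sil1, an exchange factor of the ER, had the smallest p in PCs among the genes of these 5 lists, at −2.16 (SE 0.90, edgeR adjusted p = 0.993). The smallest p of the other lists in PCs belonged to Dnajc7 (−0.61), Trap1 (0.53), Sdf2l1 (1.68), Cct6a (−0.40) and, among the autophagy genes, Lamp2 (−0.32), each past neither threshold.

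The 9 genes of chaperone-assisted autophagy and its clients, the pathway of Bag3 and Hspb8, had medians of 0.17 and 0.05. Stub1, the ubiquitin ligase that works with Bag3, had a log2 fold change of 1.64 in KO VM (SE 0.65, edgeR adjusted p = 0.931), and desmin (Des), a client of Cryab, 0.02 (SE 0.15). Another list held the small heat shock protein genes Cryaa, Hspb2, Hspb3 and Hspb9, and also Hspbap1. Of these 5, only Hspb2 and Hspb3 passed the filter, and neither had an unadjusted p under 0.05.

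Between the cell types, mitochondrial chaperones stood lowest among the lists over both genotypes, with 7 of 8 below 0 in PCs. Their median was −0.29 (0.02 over all genes tested), and 3 had an unadjusted p under 0.05, beside 11.7% of all genes tested. Hspa9, mortalin, gave −0.33 (SE 0.11, edgeR adjusted p = 0.168). The 14 ER chaperones had a median of −0.12, and Hspa5, the main ER HSP70, gave −0.21 (SE 0.12, edgeR adjusted p = 0.543). Within KO alone the ER list stood lower, with a median of −0.21 against −0.20 for the mitochondrial list. Within WT these medians were −0.08 and −0.32. Hspa12b, an endothelial HSP70 relative, was the HSF1 and cytosolic chaperone list's gene with the smallest p, at 2.08 (SE 0.57, edgeR adjusted p = 0.0922), beside the endothelial marker difference given above.

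**Figure D5:**
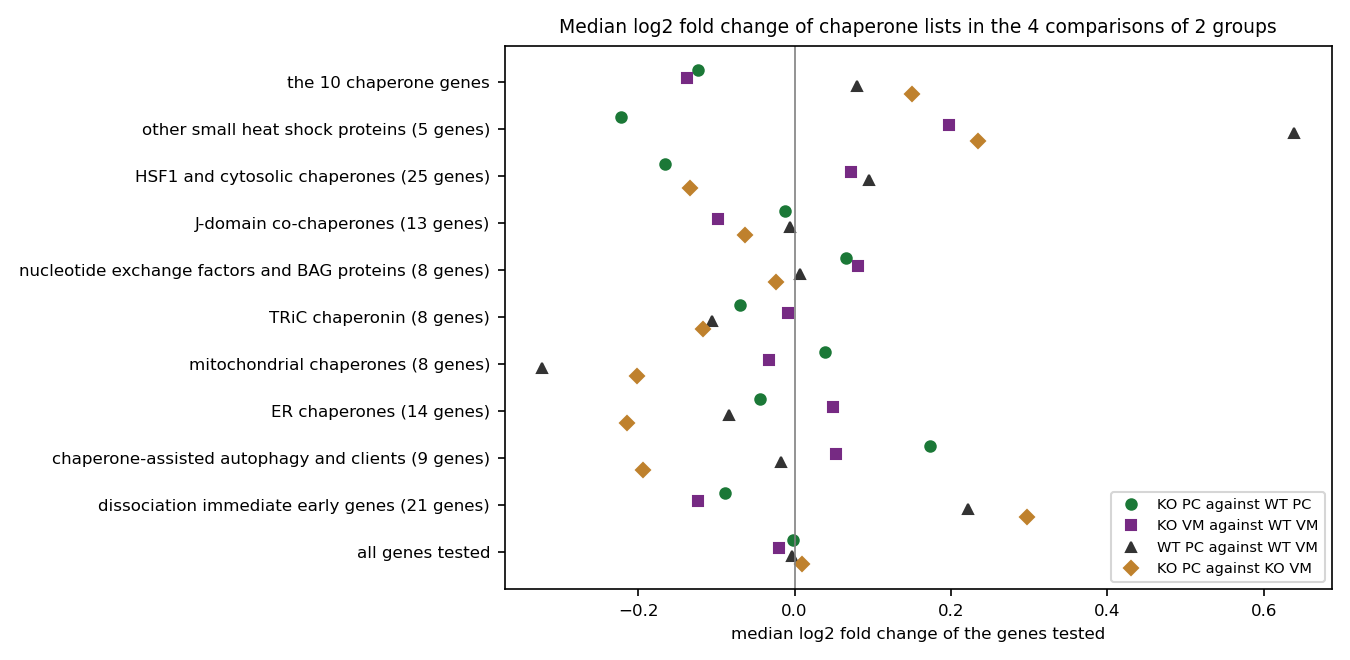
Median log2 fold change of the genes tested in each chaperone list, the early response list and all genes, for the 4 comparisons of 2 groups; each symbol is 1 comparison. Medians for genotype lie within 0.25 of 0 for every list shown, and the mitochondrial list lies left of 0 in both comparisons of PC against VM.

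Across the 12 libraries, some of the 10 genes varied together and others apart. Pearson's r of log2(normalized count + 2) was 0.89 between Hspb6 and Hspb7, 0.70 between Cryab and Hspb1, 0.67 between Hspa8 and Bag3 and 0.61 between Hspa1a and Hspa1b. Dnajb1 ran opposite to Hspb6 (r = −0.84) and Hspb7 (r = −0.76), a relation in which WT PC replicate 2 held the highest Dnajb1 and the lowest Hspb6 and Hspb7 values. These are descriptions over libraries that differ in depth, genotype and cell type. Among 8100 genes with a mean normalized count above 20, the mean profile of the 5 small heat shock proteins was followed most closely by Cbll1 (r = 0.92), Qrsl1 (0.91), Xirp1 (0.89), Snrpa (0.89) and Tmem177 (0.88). The mean profile of Hspa1a, Hspa1b and Dnajb1 was followed most closely by Fam129a and Timp3 (both 0.79), then Ppp1r3b, Cggbp1 and Rin2 (all 0.75). Neither mean profile was a pattern shared by all its genes. Dnajb1 had r = 0.14 with Hspa1a and −0.10 with Hspa1b, and Cryab had r = −0.17 with Hspb7.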

How the data were processed

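RNA-seq libraries (NuGEN Ovation Trio, 50 bp paired end, HiSeq2500) were aligned by the authors to mm10 with STAR 2.5.0c, guided by the GTF GRCm38.74, and counted with HTSeq 0.6.0; whether counting used strand is not given in the sources used here. The deposited values are raw counts of read pairs per Ensembl gene, 1 table per library. The 5 rows that name no gene (not aligned, not unique, ambiguous and the like) were left out. Ensembl identifiers were given symbols from a GENCODE annotation of the same build. Hspa8 pseudogenes and other copies were not merged.

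Counts were fitted in R 4.3.3 with edgeR 4.0.16 (TMM, glmQLFit and glmQLFTest, Benjamini-Hochberg method over every gene tested), keeping genes whose normalized counts averaged above 5 in the libraries compared. Each comparison of 2 groups used its 6 libraries; the difference between genotype effects and the fits over both cell types or genotypes used all 12. The standard error was the log2 fold change divided by the square root of F. The summed counts of Hspa1a and Hspa1b were tested on log2(normalized count + 2). Alternatives were DESeq2 1.42.0, limma 3.58.1 (voom with quality weights), other size factors, filters, thinning, the replicate block, 1 fit of 12 libraries, and each library left out. Steps were tested on simulated data. Sequence windows of 50 bases, the read length, were compared between annotated transcripts.

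The genes named were the 10 members in every comparison, the targeted gene, the reporter gene Cntn2, the 5 genes most correlated with each of 2 member profiles, genes that overlap or adjoin a member, and, from each list, any gene with an adjusted p under 0.05 or else the one with the smallest p and the one with the highest count; further list genes, the counts near Ncam1 and the shared sequence were added after values were seen. The members and lists were chosen with earlier results of these data known.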

Additional observations from a re-analysis of the deposited data

How the results depend on the processing

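Of the 10 genes, the number past an adjusted p of 0.05 was 0 in all 7 comparisons, and it became 1 (Cryab) in KO VM against WT VM and in KO against WT over both cell types with no filter on low counts (adjusted p = 0.000277 and 0.000574); with each library left out it ranged from 0 to 1 in KO VM against WT VM. The number past an unadjusted p of 0.05 changed as follows, with the share of all genes tested that passed it in brackets. In KO PC against WT PC it was 0 (3.22%), and 1 with DESeq2 (4.78%), with DESeq2 size factors (3.34%) and without mitochondrial genes (3.18%). It was 2 with no filter (5.21%) and with limma (4.28%), and 3 in 1 fit of all 12 libraries (8.65%). With a library left out it was 0 to 2 (1.41% to 7.72%). In KO VM against WT VM it was 2 (5.12%), 1 in the fit of all 12 libraries (1.24%) and 3 with no filter (4.71%). With a library left out it was 2 to 3 (4% to 6.59%). In KO against WT over both cell types it was 3 (5.03%), and 4 with no filter (6.04%). With a library left out it was 2 to 3 (3.36% to 7.1%). In WT PC against WT VM it was 0 (6.36%) and 2 with limma (10.2%). It was 1 with no filter (7.18%), with the replicate block (5.24%) and in the fit of all 12 libraries (11.2%). With a library left out it was 0 to 1 (2.67% to 10.9%). In KO PC against KO VM it was 0 (9.7%), and 1 with DESeq2 (8.39%), no filter (7.89%), limma (9.84%) or the replicate block (10.7%). With a library left out it was 0 to 1 (7.25% to 10.9%). In PC against VM over both genotypes it was 2 (11.7%), 3 with limma (15.5%), where Cryab passed too, and 4 with no filter (9.98%). With a library left out it was 0 to 3 (9.04% to 15%).

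The cause of these changes was not tested. No called value changed sign, and Cryab was lower in KO under every alternative run. Libraries that share a number were not taken as paired: correlations of their deviations from the group means, over 8100 genes, were 0.21, 0.08 and 0.15 for WT PC with WT VM and −0.01, 0.12 and 0.02 for KO PC with KO VM. Every sample of the WT groups correlated best with its own number; KO samples did not all do so. Fitted with the replicate number as a block, Cryab in VMs was −0.69 (edgeR adjusted p = 0.391) and no other count among the 10 genes changed than those given above. For genotype within VMs this block joins WT and KO libraries, which come from different mice. Their same-number correlations were −0.07, −0.04 and 0.06. That fit therefore cannot address whether PC and VM libraries share hearts. Over all genes, the number past an adjusted p of 0.05 was 0, 4, 13 and 94 for genotype within PCs and within VMs and for cell type within WT and within KO; it was 7, 10, 121 and 135 with DESeq2, 1, 3, 130 and 75 with limma, 132, 47, 297 and 326 with no filter, 3, 1, 38 and 8 in the fit of all 12 libraries, and 1, 7, 4 and 121 with the replicate block. Over both cell types (genotype) and over both genotypes (cell type) it was 4 and 145, 15 and 459 with DESeq2, and 130 and 592 with no filter. Depth limits Hspa1a and Hspa1b most, with as few as 6 and 13 reads in a library.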
